A study of Homo sapiens with 6 samples.

Results

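The 10 genes described here encode neuronal RNA-binding proteins and splicing regulators: NOVA1 and NOVA2, RBFOX1, RBFOX2 and RBFOX3, ELAVL2, ELAVL3 and ELAVL4, and PTBP1 and PTBP2. They were listed by name, not by any measured value, out of 20037 protein-coding genes of the RefSeq GRCh38 gene table on chromosomes 1 to 22, X and Y. Every peak that touched a gene body or the 5 kb beyond either end was assigned to that gene. CUT&RUN, which cuts out and sequences the DNA beneath a chromatin protein with a nuclease tethered to its antibody, was used to map MYT1L, a zinc-finger factor that neurons express. The cells were wild-type H1, an established human embryonic stem cell line, at day 30. By the series' design they were cortical interneurons made from the stem cells, although each sample's cell type is labelled as embryonic stem cells. The antibody recognised MYT1L in 4 libraries and was IgG, the negative control, in the other 2. No label says whether the replicates came from separate cultures, so the spread between them may be technical. No expression was measured, so the cell type could not be checked against its markers, and all 6 libraries come from 1 cell line.

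The proteins fall into 4 families. NOVA proteins bind clustered short motifs in neuronal transcripts and decide the inclusion of exons of synaptic genes. RBFOX proteins bind a GCAUG element and act on neuronal and muscle exons, and RBFOX3 is the antigen known as NeuN, a marker of mature neurons. The neuronal ELAVL proteins, also called Hu proteins, bind AU-rich and U-rich sequences and stabilise or splice their targets. PTBP1 represses neuronal exons in non-neuronal cells and progenitors, and its paralogue PTBP2 replaces it as neurons form. MYT1L is known mainly as a repressor of non-neuronal genes, and its zinc fingers recognise a core of AAGTT.

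A region was defined as a set of MYT1L peaks connected by overlaps of at least 1 bp, and it was called reproducible when it held a peak of at least 3 of the 4 MYT1L libraries and no IgG peak. Of the 10 genes, 7 had a reproducible region: NOVA1, RBFOX1, RBFOX2, ELAVL2, ELAVL3, PTBP1 and PTBP2. By the same rule 48.0% of all protein-coding genes had one. In 5 genes (NOVA1, RBFOX1, RBFOX2, PTBP1 and PTBP2) the region lay within 5 kb of an end of the gene, against 44.2% of all protein-coding genes. In each of these 5 it spanned the annotated end where transcription begins. NOVA2, RBFOX3 and ELAVL4 had MYT1L peaks but none that recurred in 3 libraries. With 2 libraries sufficing, 9 of the 10 genes had a region, all but ELAVL4, as did 65.3% of all protein-coding genes. No IgG library had a peak at any of the 10 genes, and 4.16% of all protein-coding genes had an IgG peak.

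The regulatory sequence under the reproducible regions is shown for 1 start each of NOVA1, ELAVL2 and PTBP1, the 3 genes in which a summit, the base of highest pileup, fell within the 250 bases before a start listed in the promoter table. Sequences are from RefSeq (GRCh38.p14), 5′ to 3′ on the gene's strand. Capitals mark the bases around each summit, 11 where the window is not cut by its edge. The stretch before the ELAVL2 start used by the region found in all 4 libraries is chr9:23826241-23826490 on the minus strand, and it holds the summits of all 4 libraries. The stretch before the NOVA1 start is chr14:26598034-26598283 on the minus strand and holds the summit of MYT1L replicate 4. The stretch before the PTBP1 start is chr19:797202-797451 on the plus strand and holds the summits of replicates 3 and 4.
ELAVL2: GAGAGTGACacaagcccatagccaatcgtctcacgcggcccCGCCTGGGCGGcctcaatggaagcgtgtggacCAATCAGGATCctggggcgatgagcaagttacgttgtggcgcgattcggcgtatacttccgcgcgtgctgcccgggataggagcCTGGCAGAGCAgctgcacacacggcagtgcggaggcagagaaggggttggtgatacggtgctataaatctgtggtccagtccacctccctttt
NOVA1: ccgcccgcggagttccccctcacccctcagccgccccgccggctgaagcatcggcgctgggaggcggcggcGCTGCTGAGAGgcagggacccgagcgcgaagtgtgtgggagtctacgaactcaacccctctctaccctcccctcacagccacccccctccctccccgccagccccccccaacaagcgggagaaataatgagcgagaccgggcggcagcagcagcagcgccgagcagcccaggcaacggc
PTBP1: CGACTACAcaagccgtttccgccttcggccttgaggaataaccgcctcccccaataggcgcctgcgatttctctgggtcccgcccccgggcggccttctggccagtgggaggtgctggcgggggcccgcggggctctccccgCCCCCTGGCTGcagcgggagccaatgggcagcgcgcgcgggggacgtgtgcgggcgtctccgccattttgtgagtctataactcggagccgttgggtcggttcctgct

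The stretches of NOVA1 and PTBP1 are rich in G and C, with a G+C content of 71.6% and 69.2%. That of ELAVL2, with 60.4%, stood near the middle of the promoter table (56.0th percentile). The median over all 35116 stretches of this length in the promoter table was 58.0%. The core AAGTT, searched on both strands, occurred once in the ELAVL2 stretch, with its first base 152 bases before the start. It lay between the summits of replicates 3 and 4, which were 172 and 88 bases before that start. The core was not found in the NOVA1 or the PTBP1 stretch. It occurs in 30.3% of all stretches, and in 17.8% of those touched by a reproducible region. The longer form AAGTTT, which contains AAGTT, occurs in 11.2% of all stretches and was in 2 of the 37 stretches listed for these genes, 1 each of ELAVL4 and RBFOX1, neither of them touched by a reproducible region. The promoter table held entries for 8 of the 10 genes, and it held none for RBFOX2 and ELAVL3.

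Across the 10 genes there were 79 MYT1L peaks and 0 IgG peaks. The 4 MYT1L libraries held 21, 7, 20 and 31 of them in the order of their replicate numbers, a mean of 19.8 ± 9.84 (SD, n = 4). These were between 0.0569% and 0.105% of the peaks of each library. Replicate 2 was the lowest and replicate 4 the highest, and all 4 were above both controls. The libraries differed in size and depth: on the chromosomes used, the MYT1L lists held 12310 to 30086 peaks and the IgG lists 976 and 998. The caller's lowest background, a measure of depth, was 0.421 to 1.18 fragments per base in the MYT1L libraries and 0.329 and 0.190 in the IgG libraries. Total read numbers were not given in the sources used here. Antibody and depth cannot be told apart in these totals.

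**Figure D1:**
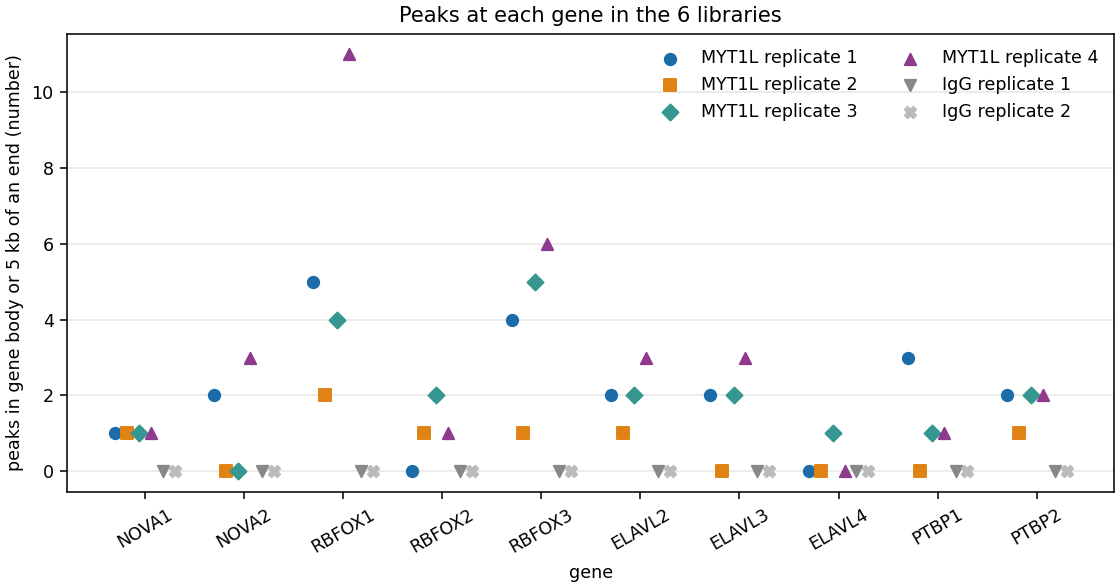
Number of peaks (y axis) in the body or within 5 kb of an end of each gene (x axis) in the 4 MYT1L and 2 IgG libraries, 1 symbol per library. RBFOX1, the longest gene, ranged from 2 to 11 peaks in the MYT1L libraries, ELAVL4 had 1 peak in replicate 3 only, and both IgG libraries stood at 0 for every gene.

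At 5 of the 10 genes, namely NOVA1, RBFOX1, RBFOX3, ELAVL2 and PTBP2, every MYT1L library had more peaks than either IgG library. Over all protein-coding genes this held for 30.6%. For each of these 5 the exact permutation test over the 15 ways of placing 2 IgG labels on 6 libraries (two-sided) gave p = 0.133, the smallest this design allows, and an adjusted p of 0.366 over 16853 genes with a peak. The test could not pass 0.05 for any gene, and 0 genes had an unadjusted p under 0.05. RBFOX2, ELAVL3 and PTBP1 each lacked a peak in 1 MYT1L library (p = 0.400 by the exact permutation test, adjusted p = 0.614). NOVA2 lacked one in 2 libraries (exact permutation p = 0.800, adjusted p = 0.942) and ELAVL4 in 3 (exact permutation p = 1, adjusted p = 1).

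NOVA1 (chromosome 14, 26443090 to 26598033, minus strand) had a single region, and it lay over the start of the gene. It ran from 26597722 to 26598712 and was found in all 4 MYT1L libraries. Fold enrichment over the caller's background, the authors' value per peak, was 7.19, 6.94, 4.88 and 10.6 in replicates 1 to 4, with a mean of 7.39 ± 2.35 (SD, n = 4). Replicate 4 was the highest and replicate 3 the lowest. The pileups at the summits, recovered from the deposited fold and p, were 17, 11, 9 and 48 fragments in replicates 1 to 4. The pileup of 48 was the highest of all 31 peaks in the reproducible regions of the 10 genes, which had a median of 16. Within their own lists the 4 peaks stood at the 40.2nd to 92.4th percentile of fold. The summits lay 259, 315 and 174 bp before the start in replicates 1, 3 and 4, and 25 bp after it in replicate 2. The region also overlapped the start of NOVA1-DT, a transcript that leaves the same promoter in the opposite direction.

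NOVA2 (chromosome 19, 45933734 to 45973865, minus strand), the paralogue of NOVA1, had 4 regions and none was reproducible. The one at its start, from 45973700 to 45974245, had a peak in replicate 1 (fold 4.13) and replicate 4 (fold 6.08), the libraries with the longest lists. Their summits lay 59 and 46 bp after the start, 13 bp apart. Replicates 2 and 3 had no peak anywhere at NOVA2. The other 3 regions lay inside the gene and each came from 1 library, with folds of 3.77 to 6.07. A difference between the paralogues was not tested.

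**Figure D2:**
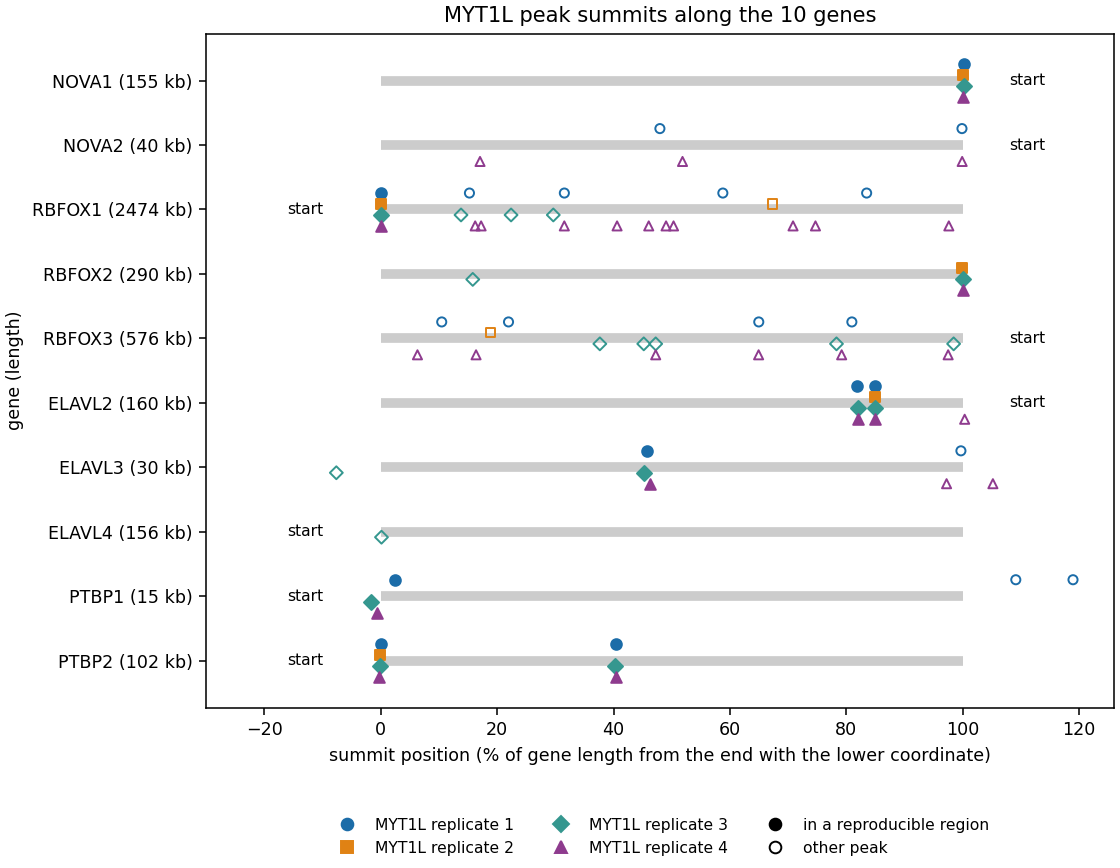
Position of each MYT1L peak summit along the 10 genes (x axis, percent of gene length from the end with the lower coordinate; y axis, gene with its length), 1 symbol per library, filled where the peak belongs to a reproducible region. "start" marks the side on which transcription begins for the 8 genes whose strand is in the promoter table. Filled symbols gather at the gene starts of NOVA1, RBFOX1, PTBP1 and PTBP2, at 1 end of RBFOX2, and inside ELAVL2, ELAVL3 and PTBP2.

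RBFOX1 (chromosome 16, 5239721 to 7713340, plus strand) is one of the longest human genes. Of its 18 regions, 16 were seen in 1 library only, 1 in 2 libraries and 1 in all 4. The region in all 4 libraries lay on the first base of the gene, from 5239677 to 5240038. Its fold was 5.24, 6.93, 4.62 and 8.60 in replicates 1 to 4 (mean 6.35 ± 1.79, SD, n = 4). As at NOVA1, replicate 4 was the highest and replicate 3 the lowest. All 4 summits lay downstream of the start, by 138, 39, 67 and 113 bp in replicates 1 to 4. Further along, a region from 6019385 to 6019825 over an internal RefSeq start had peaks in replicate 1 (fold 4.72) and replicate 4 (fold 3.70). The 16 regions of a single library were spread over the gene, with folds of 3.67 to 5.81, and 9 of them came from replicate 4, 3 each from replicates 1 and 3, and 1 from replicate 2. With 1 reproducible region in 2.48 Mb, RBFOX1 had 0.403 per Mb. Protein-coding genes over 200 kb had 2.47 per Mb.

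RBFOX2 (chromosome 22, 35738736 to 36028824), which is more widely expressed than its paralogues, had a region at its upper end from 36028105 to 36029281. RBFOX2 is read from the minus strand, so that end is its start. The region was in 3 libraries, with a fold of 7.28 in replicate 2, 6.74 in replicate 3 and 8.28 in replicate 4 (mean 7.44 ± 0.781, SD, n = 3). The 3 values lay close together, at the 80.03rd to 86.32nd percentile of their lists. The summits lay 375 bp after that end of the gene, along its strand, in replicate 2, and 113 and 173 bp before it in replicates 3 and 4. Replicate 1 had no peak at RBFOX2, although its list was the second longest. The only other peak was in replicate 3, inside the gene (fold 5.36).

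RBFOX3 (chromosome 17, 79089345 to 79665571, minus strand) had 16 MYT1L peaks, the second most of the 10 genes, but no reproducible region. The MYT1L libraries held 4, 1, 5 and 6 of them, replicate 2 again the fewest. They formed 14 regions, of which 12 were in 1 library and 2 in 2 libraries. Folds were low throughout. The single-library peaks ran from 3.41 to 5.09, and the 2 shared regions had mean folds of 3.83 (from 79361394 to 79361659, replicates 3 and 4) and 4.25 (from 79463208 to 79464013, replicates 1 and 4). Both shared regions were inside the gene, 63089 bp and 38460 bp from the nearest of its 12 starts in the promoter table. No window of 250 bases before to 50 after these starts was touched by a peak of any library.

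**Figure D3:**
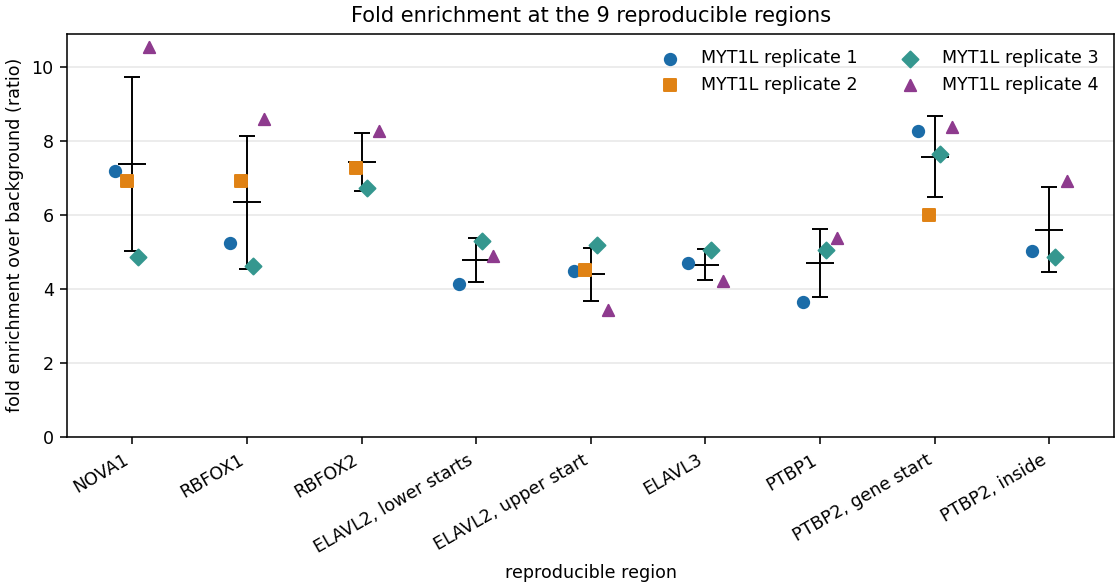
Fold enrichment of the peak (y axis, ratio) in each MYT1L library at the 9 reproducible regions (x axis), with the mean and SD as bars. The regions at the starts of NOVA1, RBFOX1, RBFOX2 and PTBP2 had means of 6.35 to 7.59 over the 3 or 4 libraries with a peak, and those of ELAVL2, ELAVL3 and PTBP1 means of 4.41 to 4.79. "Upper start" and "lower starts" at ELAVL2 are the regions at 23826224 and 23820675.

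The neuronal ELAVL genes differed in where their peaks lay. ELAVL2 (chromosome 9, 23690104 to 23850601, minus strand) had 2 reproducible regions, both inside the gene at annotated internal starts, 24043 and 28620 bp from its outermost end. The upper one, from 23826224 to 23826558, was in all 4 libraries, with a fold of 4.48, 4.52, 5.18 and 3.44 in replicates 1 to 4 (mean 4.41 ± 0.719, SD, n = 4). Here replicate 4 was the lowest, and its peak stood at the 2.63rd percentile of fold in its list, while its pileup of 22 fragments was the highest of the 4. The caller's background at that peak was 5.68 fragments, against 0.991 to 3.01 in the other libraries. The summits lay 247, 204, 172 and 88 bp before the start in replicates 1 to 4, within the sequence shown above. The region also overlapped LOC105375992. The lower one, from 23820675 to 23821981, spanned 3 internal starts and was in replicate 1 (fold 4.15), replicate 3 (5.30) and replicate 4 (4.91), a mean of 4.79 ± 0.584 (SD, n = 3). At the outermost start of the gene only replicate 4 had a peak (fold 6.81).

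ELAVL3 (chromosome 19, 11451326 to 11481046) had 1 reproducible region, inside the gene and 13314 bp from the nearer end, from 11464640 to 11465190. Its fold was 4.70 in replicate 1, 5.06 in replicate 3 and 4.22 in replicate 4 (mean 4.66 ± 0.418, SD, n = 3). The peaks of replicates 3 and 4 did not overlap each other and were joined through that of replicate 1. At the upper end of ELAVL3 there were 3 peaks at separate positions, 2 of replicate 4 and 1 of replicate 1, with folds of 3.63 to 3.74. Beyond its lower end, replicate 3 had a peak (fold 4.34) that overlapped the neighbouring gene PRKCSH. ELAVL4 (chromosome 1, 50048055 to 50203772, plus strand) had the fewest peaks of the 10 genes. Its only one, in replicate 3, lay at the gene start from 50047954 to 50048328, with a fold of 6.83, which is at the 85.0th percentile of that list. None of the other 3 MYT1L libraries had a peak there.

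PTBP1 (chromosome 19, 797452 to 812312, plus strand), the shortest of the 10 genes, had a region over its start from 796969 to 797869. Its fold was 3.67 in replicate 1, 5.07 in replicate 3 and 5.39 in replicate 4 (mean 4.71 ± 0.915, SD, n = 3). The peaks of replicates 1 and 3 did not overlap: the summit of replicate 1 lay 365 bp after the start, and those of replicates 3 and 4 lay 248 and 103 bp before it. The peak of replicate 4, with a pileup of 37 fragments, overlapped both. The other 2 peaks at PTBP1 were in replicate 1 beyond the 3′ end, with folds of 3.44 and 3.73. Both overlapped the neighbouring gene PLPPR3, and the one with a fold of 3.44 also overlapped MIR3187.

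PTBP2 (chromosome 1, 96721784 to 96823739, plus strand) had 2 regions and both were reproducible. The one at the gene start, from 96721400 to 96722481, was in all 4 libraries. Fold was 8.28, 6.02, 7.66 and 8.39 in replicates 1 to 4 (mean 7.59 ± 1.09, SD, n = 4). Replicate 2 was the lowest, and the other 3 lay close together. The summits lay 44 bp after the gene start in replicate 1 and 115, 187 and 290 bp before it in replicates 2, 3 and 4. The start given for PTBP2 in the promoter table is 96722638, and the summits lay 810 to 1144 bp before that one. The second region, from 96762538 to 96763321, was inside the gene, 40754 bp from its start, with a fold of 5.04 in replicate 1, 4.88 in replicate 3 and 6.93 in replicate 4 (mean 5.61 ± 1.14, SD, n = 3). Its 3 summits lay within 124 bp. PTBP2 and ELAVL2 were the 2 genes with 2 reproducible regions, and 7.79% of all protein-coding genes had 2 or more.

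**Figure D4:**
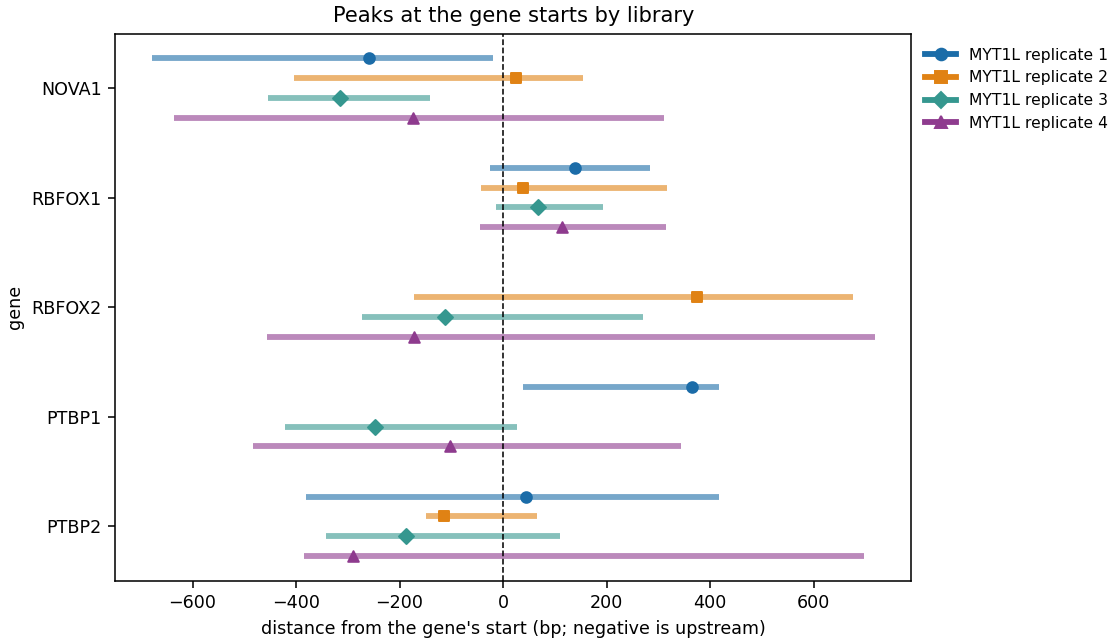
Extent (bars) and summit (symbols) of the MYT1L peaks at the gene starts of NOVA1, RBFOX1, RBFOX2, PTBP1 and PTBP2, by library; the x axis is the distance from the gene's start in bp along its strand, with RBFOX2 read from its upper end. At RBFOX1 the 4 summits lay 39 to 138 bp after the start, whereas at PTBP1 the summits of replicates 1 and 3 lay on different sides of it and their peaks did not overlap.

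The 9 reproducible regions differed in strength. The mean percentile of fold was taken over the libraries with a peak only, so a library without one does not lower it. This mean percentile was highest at RBFOX2 (83.3 over 3 libraries) and the PTBP2 start (83.1 over 4), and lowest at the upper ELAVL2 region (25.0). Its median over the 9 regions was 54.7, and over all 11091 reproducible regions it was 64.2. Regions in all 4 libraries were found at 4 genes (NOVA1, RBFOX1, ELAVL2 and PTBP2), against 25.3% of all protein-coding genes. Of the 53 regions at the 10 genes, 75.5% were seen in 1 library, and of all 49028 regions 58.1% were. Replicate 4 gave 18 of these 40 single-library regions, replicates 1 and 3 gave 10 each, and replicate 2 gave 2.

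The absence of IgG peaks at these genes has to be read with the depth of the controls. When the pileup and background of each of the 31 peaks were scaled to the lowest background of IgG replicate 1, 11 peaks still reached the lowest p listed for that library. They came from 6 of the 9 regions, those at the starts of NOVA1, RBFOX1, RBFOX2, PTBP1 and PTBP2 and the lower ELAVL2 region. At the background of IgG replicate 2, 3 peaks did, 1 each at NOVA1, RBFOX2 and PTBP2. For the upper ELAVL2 region, the ELAVL3 region and the inner PTBP2 region no peak did. By this scaling, a peak of that strength would not have been listed at the depth of the controls. Scaled pileups were rounded down, and these counts depend on that. At the inner PTBP2 region the scaled pileup of MYT1L replicate 4 was 4.78 before rounding, at the depth of IgG replicate 1. None of the 31 peaks was among the 976 with the lowest p in its list, and the best rank was 1380, that of replicate 4 at NOVA1.

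Longer genes held a reproducible region more often. Among protein-coding genes under 50 kb 40.9% had a reproducible region, as did 61.7% of those of 50 to 200 kb and 70.2% of those over 200 kb. Of the 3 genes under 50 kb, 2 had one (ELAVL3 and PTBP1, not NOVA2). Of the 4 genes of 50 to 200 kb, 3 had one (NOVA1, ELAVL2 and PTBP2, not ELAVL4), and of the 3 longer genes 2 had one (RBFOX1 and RBFOX2, not RBFOX3). A region within 5 kb of an end was held by 1 of 3, 2 of 4 and 2 of 3 genes in these classes, beside 39.7%, 54.0% and 54.3% of all genes. With 3 or 4 genes in a class, these counts are near the shares of all genes. Together the 10 genes had 2.20 reproducible regions per Mb of gene and flank, or 4.96 per Mb without RBFOX1. All protein-coding genes had 7.72 per Mb, and the chromosomes as a whole 3.59. The rate fell with gene length: 17.2 per Mb under 50 kb, 7.16 at 50 to 200 kb and 2.47 over 200 kb. RBFOX1 alone took up 2.48 of the 4.10 Mb and had 0.403 per Mb, against 2.47 for all genes over 200 kb. How far gene length accounts for the rate of the 10 genes was not tested.

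**Figure D5:**
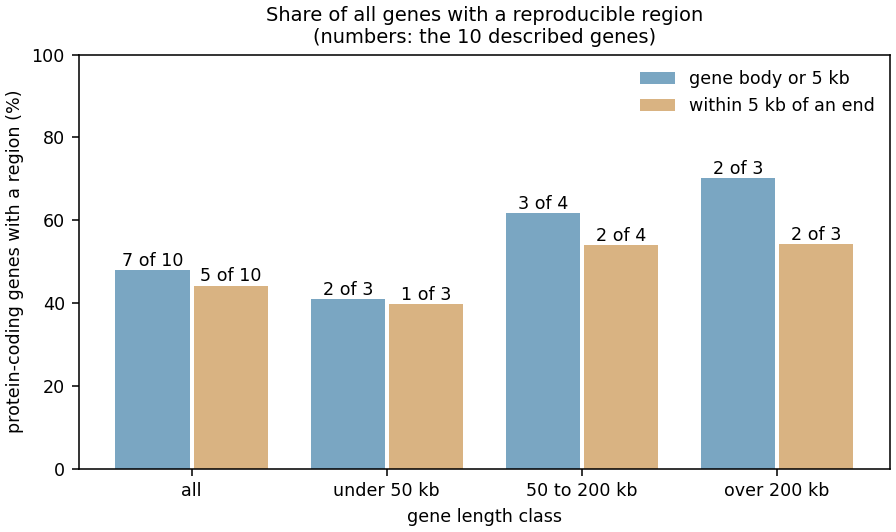
Share of all protein-coding genes (y axis, percent) with a reproducible region in the gene body or 5 kb (blue) or within 5 kb of an end (tan), by gene length (x axis); the numbers above the bars count the 10 genes described here. The shares rose with length from 40.9% to 70.2% for the gene body, and 7 of the 10 genes stood beside 48.0% of all genes.

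The promoter table lists 37 starts for 8 of the genes, some of them overlapping, and the 300-base windows of 8 of these starts, in NOVA1, ELAVL2, PTBP1 and PTBP2, were touched by a reproducible region. Of all starts listed, 26.9% were. A region can reach further than the peaks of single libraries. The PTBP2 window was touched by a peak of 1 library, and those at 23821820 (ELAVL2) and 797984 (PTBP1) by peaks of 2. The windows of NOVA2 and of RBFOX1 at 6019703 were also touched in 2 libraries but are among the other 29. The 250 bases before the 8 starts had a median G+C content of 69.6%, and those before the other 29 had 50%. Over the whole table the medians were 68.4% for starts touched by a reproducible region and 52.8% for the others. The ratio of observed to expected CG dinucleotides had a median of 0.855 at the 8 starts and 0.463 at the other 29, against 0.863 and 0.342 over the whole table. Not every start rich in CG was touched. The RBFOX1 start at 6483386 had a ratio of 1.11, higher than 97.6% of the table, and no peak of any library touched its window.

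Of 23 other splicing and RNA-binding regulators listed by name, 15 (65.2%) had a reproducible region and 12 had one within 5 kb of an end, beside 48.0% and 44.2% of all protein-coding genes. Most of the 23 are longer than 50 kb, and they were not matched to all genes in length. Of all genes of 50 to 200 kb, 61.7% had a region and 54.0% an end region, and of those over 200 kb 70.2% and 54.3%. Those with an end region in all 4 libraries and the highest folds were KHDRBS2 (mean fold 9.02 ± 3.65), RBM20 (7.61 ± 3.03), CELF6 (6.98 ± 1.63), PTBP3 (6.43 ± 1.75) and KHDRBS1 (5.61 ± 1.06; SD, n = 4 each). KHDRBS1 and KHDRBS2 are STAR-family splicing factors, RBM20 is known for splicing titin in the heart, and PTBP3 is the third member of the PTBP family. The end region of PTBP3 also overlapped the neighbouring gene HSDL2. A second reproducible region of PTBP3 lay inside the gene over its start in the promoter table, from 112332857 to 112334111 on chromosome 9, in all 4 libraries (mean fold 9.46 ± 3.13, SD, n = 4), and overlapped no other gene. All 3 PTBP genes had a reproducible region at an end. CELF2 was the only one of the 23 with an IgG peak, in replicate 2, at a position apart from its reproducible region.

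For the 2 genes with most reproducible regions, genes of a length within 20% were ranked by how close their peak numbers in the 6 libraries were, as the Euclidean distance of log2(number + 1). Peak numbers are small, so ties were frequent. For ELAVL2, 11 of 1031 genes had the same 6 numbers, the nearest in length being DGLUCY, SH3BGRL2 and ICA1. For PTBP2, 24 of 1458 genes did, the nearest in length being BCL2L13, CRY1 and ART3.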

How the data were processed

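CUT&RUN peak lists of 6 libraries (4 MYT1L, 2 IgG) were used. Titles gave the group and number of each library; names written within the MYT1L files run 1 number higher, and the titles were followed. Peaks were called with MACS2 on hg38, per the submitters' processing notes; version, threshold, control library and pooling are not given in the sources used here. The lists have no header. Each deposited peak has a fold enrichment (a ratio over the caller's background), a score and, as −log10, its p-value and q-value, all values deposited by the authors per peak, and a start, end and summit (other columns deposited by the authors). Percentiles of fold were taken within a list. Fold was not normalised between lists, so its values and means over libraries only describe the peaks.

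Peaks on chromosomes 1 to 22, X and Y were used. Regions, the reproducibility rule (3 of 4 MYT1L lists, no IgG peak, 1 bp overlap) and the 5 kb window are as given above, with genes from RefSeq GRCh38.p14, whose coordinates match the build of the lists. Coordinates count from 1. Pileups came from the MACS formulas, fold = (pileup + 1) / (background + 1) and a Poisson p. For at least 99.9% of peaks (those whose −log10 p is 200 or less) a whole pileup gave the deposited −log10 p within 0.0002. Scaling to IgG depth multiplied pileup and background by the ratio of the lowest backgrounds, which assumes like fragment lengths. The scaled pileup was rounded down to a whole number, and the scaled background was not rounded. Chromosome length was taken to the last gene or peak. The exact permutation test used the difference in mean peak number and Benjamini-Hochberg adjustment. Region and gene calls, pileups and the permutation test were tested on simulated data, and the regions matched bedtools 2.31.1. Python 3.11.15, numpy 2.4.6, pandas 2.3.3 and scipy 1.17.1 were used.

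The members, the list of 23 other regulators and the tests were chosen with earlier results of these data known. All 10 members are named whatever their values. Of the 23, up to 5 with an end region in all 4 libraries were named by mean fold, with any that had an IgG peak and genes near in peak number. Alternatives were the number of libraries, a −log10 q of at least 5, equal list lengths, IgG regions kept, stricter overlap, 1 kb and 10 kb windows, each library left out and the replicate block.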

Additional observations from a re-analysis of the deposited data

Results flagged for a closer look

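In 2 of 15 sets of 4 MYT1L values, 1 library stood apart from the other 3, which were equal to each other. ELAVL4 had 1 peak in replicate 3 and none in the others. PTBP2 had 1 peak in replicate 2, the library with the shortest MYT1L list, and 2 in each of the others. Chance flags about 1 in 20 such sets, and with peak numbers this small equal values are frequent.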

How the results depend on the processing

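Lists shortened to the shortest of all 6, a base shared by 3 libraries, and 1 kb around a start in the promoter table (4 genes, beside 42.2% of all) were alternatives chosen after seeing the data. The 7 genes with a reproducible region became 4 with all 4 libraries required, 4 with a −log10 q of at least 5, 4 with MYT1L lists of equal length (12310 peaks) and 0 with 976 peaks per list, settings that leave fewer peaks or ask for more libraries. The genes called were NOVA1, RBFOX1 and PTBP2 in the first 3 of these, with ELAVL2 in the first and RBFOX2 in the other 2. The share of all protein-coding genes was 25.3%, 30.6%, 33.7% and 0.205% in the same order, against 48.0%. The 9 reproducible regions became 4, 4, 4 and 0, the 5 genes with an end region 3 with all 4 libraries (22.9% of all genes) and 0 with 976 peaks per list (0.140%), and the 15 other regulators 7 and 0. For the genes described here the outcome with 976 peaks per list was fixed beforehand. The best rank of any peak in their reproducible regions was 1380. When 3 libraries had to share a base, ELAVL3 and PTBP1 were lost and 5 genes stayed, beside 46.6% of all genes. Leaving out 1 MYT1L library, with 2 of the remaining 3 sufficing, gave 6 to 9 genes (49.3% to 63.3% of all genes). It gave 4 to 6 genes with an end region (44.8% to 58.8%), 8 to 13 regions and 15 to 19 other regulators. PTBP1 was lost without MYT1L replicate 4 and ELAVL3 without replicate 1. NOVA2 was gained without replicate 2 or 3 and RBFOX3 without replicate 1, 2 or 3. Without either IgG library the rule of 3 of 4 was kept and the 7 genes stayed, beside 48.7% and 49.6% of all genes. As no IgG peak lay at the described genes, leaving out an IgG library could not change their calls. Under the stricter q the mean of 19.8 peaks more in MYT1L than in IgG libraries was 8.25, and the genes at which every MYT1L library was above both controls fell from 5 to 1. That mean was 16 to 24 and that number of genes 5 to 7 when 1 library was left out. The share of all protein-coding genes above both controls was counted at the main setting only (30.6%). Whether changes in that number of genes are particular to them therefore cannot be told. The replicate block, pairing the libraries numbered 1 and 2, gave 14 peaks and 5 genes, and ELAVL4, at 0.25 peaks more in MYT1L libraries, came to 0 in it and without MYT1L replicate 3; the labels do not say that a number marks a shared culture, and with IgG at 0 throughout no pairing could be checked. Of the 37 promoter stretches of these genes, 2 held AAGTTT and 12 held the core AAGTT, a rise that follows from the shorter word. The shares of all stretches were 11.2% and 30.3%. Among the 8 stretches touched by a reproducible region 2 held AAGTT, beside 17.8% of all touched stretches. Strength ranked by −log10 q gave a median percentile of 58.6 in place of 54.7. ELAVL4 was called under none of 16 alternatives for regions.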
